A study of Mus musculus with 8 samples.

Results

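The 10 genes described here belong to the Notch pathway or resemble its ligands: the receptors Notch1, Notch2 and Notch3, the ligands Jag1, Jag2 and Dll1, the glycosyltransferase Lfng, the target genes Hes1 and Hey1, and the delta-like gene Dlk1. They were chosen by gene symbol, and all 10 were found among the 28792 symbols of the deposited tables. The first 9 were taken for their place in the pathway. Dlk1 was selected from its difference in the first pair of libraries, so that difference is given as a description only.

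The libraries come from stem cells of the hair follicle bulge sorted from mouse back skin for RNA sequencing; there were 4 libraries, 1 per group, in 2 comparisons. The first set K15CrePGR mice with both copies of Ctnnb1 floxed (cKO) against mice with 1 floxed and 1 wild-type copy (Het). Ctnnb1 encodes β-catenin, the transducer of canonical Wnt signalling. Both groups carried the Cre transgene, which the Krt15 promoter drives in the bulge, and a Rosa-YFP reporter, and both were female C57BL6/129Sv mice of day 99. The labels place them in telogen in one field and at the onset of anagen in another. The second set LacZ-positive against LacZ-negative bulge cells, separated by reporter activity from male C57BL6 mice of day 24 that carried 1 Axin2-LacZ allele (Axin2LacZ/+), as follicles went from rest to growth. Axin2 is a feedback target of Wnt signalling. How many mice entered a library is not given in these sources. Values are FPKM, a level per transcript length and per library total. No test is possible with single libraries, and every difference describes these libraries only.

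A check of the labels comes first. Ctnnb1 stood at 370 FPKM in cKO-labelled cells and at 251 FPKM in Het-labelled cells, which runs against a loss, and a gene-level value, here over an interval of 4 genes, does not resolve the floxed part. Axin2, in contrast, stood at 2.12 FPKM in cKO-labelled cells and 16.3 in Het-labelled cells (-2.47 on the log2 scale), the direction that the label gives. The interval of Axin2 is shared as well and holds 2 genes. The libraries are called by their labels. In the second pair Axin2 stood at 18.98 FPKM in LacZ-positive cells and at 9.10 FPKM in LacZ-negative cells, the direction of the sort. Of 12 bulge markers, 12 reached 1 FPKM in cKO-labelled, Het-labelled and LacZ-positive cells. In the LacZ-negative library 1 of the 12, Krt15, is listed at 0. Krt15 stood at 7528, 6208 and 5951 FPKM in cKO-labelled, Het-labelled and LacZ-positive cells. Krt5 stood at 8690 FPKM in LacZ-negative cells. Whether Krt15 is truly absent there cannot be told from these values, so its 0 is not read. Of the 12 markers, Cd34, Tbx1 and Fgf18 lay below the 2-fold line in the LacZ pair. Cd34 stood at 223 FPKM in LacZ-positive cells and 516 FPKM in LacZ-negative cells. Of 8 leukocyte markers, 6 stayed under 1 FPKM in all 4 libraries. The others were Cd68, at 5.20 FPKM in cKO-labelled cells and 2.39 in Het-labelled cells (1.02 and 1.90 FPKM in LacZ-positive and LacZ-negative cells), and Cd74, which lay between 1.30 and 3.26 FPKM. The list summed to 9.07 FPKM in cKO-labelled cells and 5.69 in Het-labelled cells, and its part in the values of the 10 genes was not tested.

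Notch receptors sit in the cell membrane and bind ligands of the Jagged and Delta-like families on neighbouring cells. Binding leads to cleavage by ADAM proteases and γ-secretase, and the freed intracellular domain joins RBPJ and Mastermind proteins in the nucleus to switch on target genes such as those of the Hes and Hey families. In skin the pathway is known for promoting differentiation of epidermal cells above the basal layer and for maintaining follicle fates. Jag1 has been described in mouse as a β-catenin target gene in the follicle. Dlk1 resembles the Delta-like ligands but lacks the domain with which they activate receptors; it is an imprinted gene, known as preadipocyte factor for its part in holding back fat cell differentiation.

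Most of the 10 genes were present at moderate levels in all 4 libraries. Jag1, Jag2, Lfng and Notch1 lay between 26.2 and 67.1 FPKM everywhere. Dll1 and Notch2 lay lower, between 4.99 and 15.0 FPKM. Over all 4 libraries the levels of Hes1, Hey1, Notch3 and Dlk1 spread most. The 2 pairs were normalized separately and their mice differ, so a spread between the pairs is no comparison. In cKO-labelled cells Jag2 was the highest of the 10 and Hey1 the lowest, and the same 2 genes stood first and last in Het-labelled cells. In both LacZ libraries Hes1 was the highest and Dlk1 the lowest. Neighbours in these orders, such as Jag2 and Jag1 at 61.1 and 59.8 FPKM in cKO-labelled cells, cannot be separated, since no spread between replicates exists.

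**Figure D1:**
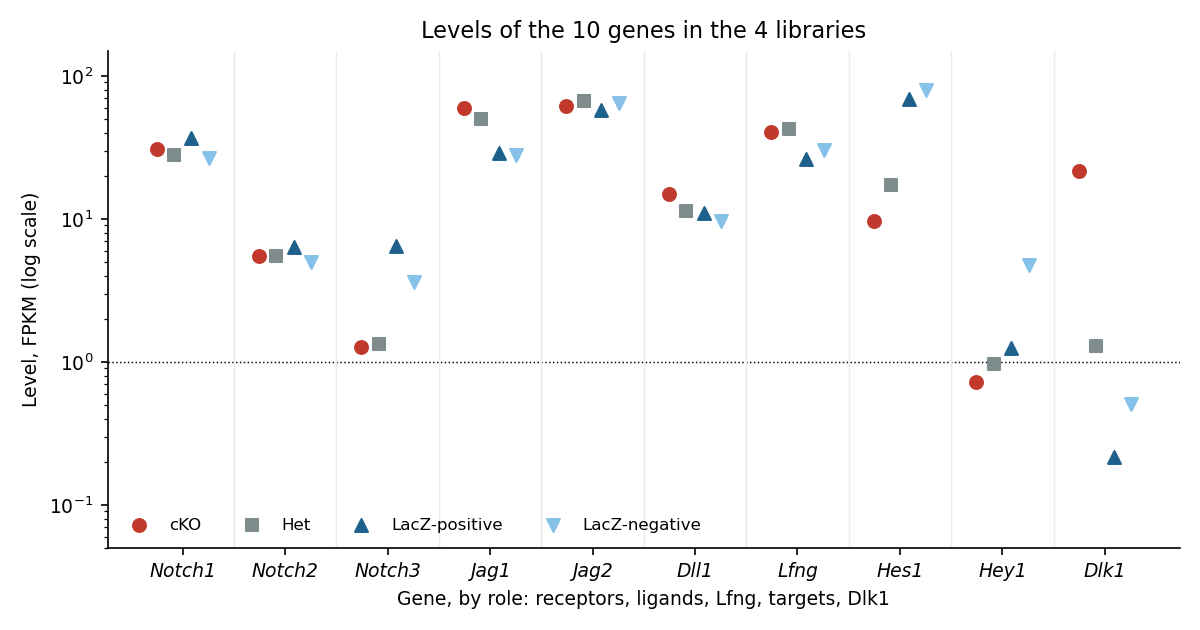
Level of each of the 10 genes in FPKM on a log axis; each point is 1 library (cKO, Het, LacZ-positive, LacZ-negative) and the dotted line marks 1 FPKM. Dlk1 stands at 21.6 FPKM in cKO-labelled cells and at or below 1.28 FPKM in the others, and Hes1 is at 69.2 and 79.4 FPKM in the LacZ libraries.

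Differences are given as the log2 of (FPKM + 1) in one library over that in the other, for genes that reach 1 FPKM in either library of the pair; a log2 difference of 1 or more, or of -1 or less, is called a 2-fold difference. In the first comparison 9 of the 10 genes reached the minimum, all but Hey1. Of these, 1 was higher in cKO-labelled cells by at least 2-fold (Dlk1), 0 were lower by that much and 8 lay within the line. Among all 13014 measured genes 4.09% were past the line, 1.8% higher and 2.29% lower. Since Dlk1 was taken for this difference, the share of members past the line is no result. The median of the 9 was -0.01, beside 0.06 for all measured genes.

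In the second comparison 9 of the 10 genes reached the minimum, all but Dlk1. Of these, 1 was lower in LacZ-positive cells by 2-fold or more (Hey1) and 0 were higher by that much. Across the 13283 measured genes 7.27% were past the line, 4.67% higher and 2.6% lower. The median of the 9 members was 0.04, beside -0.13 for all measured genes. The FPKM of this pair are offset as a whole: the median difference was -0.17 for genes that reach 5 FPKM in both libraries, so a difference after centring on that median is given beside that of each member and of most other genes named with a difference. Centring also changes the balance across the genome, from 620 higher and 346 lower genes to 804 higher and 224 lower. Summed over all genes, FPKM came to 1002020 in LacZ-positive cells and 1326130 in LacZ-negative cells. In cKO-labelled and Het-labelled cells the sums were 1066550 and 1095650. Summed levels of gene lists are given without adjustment for these totals.

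**Figure D2:**
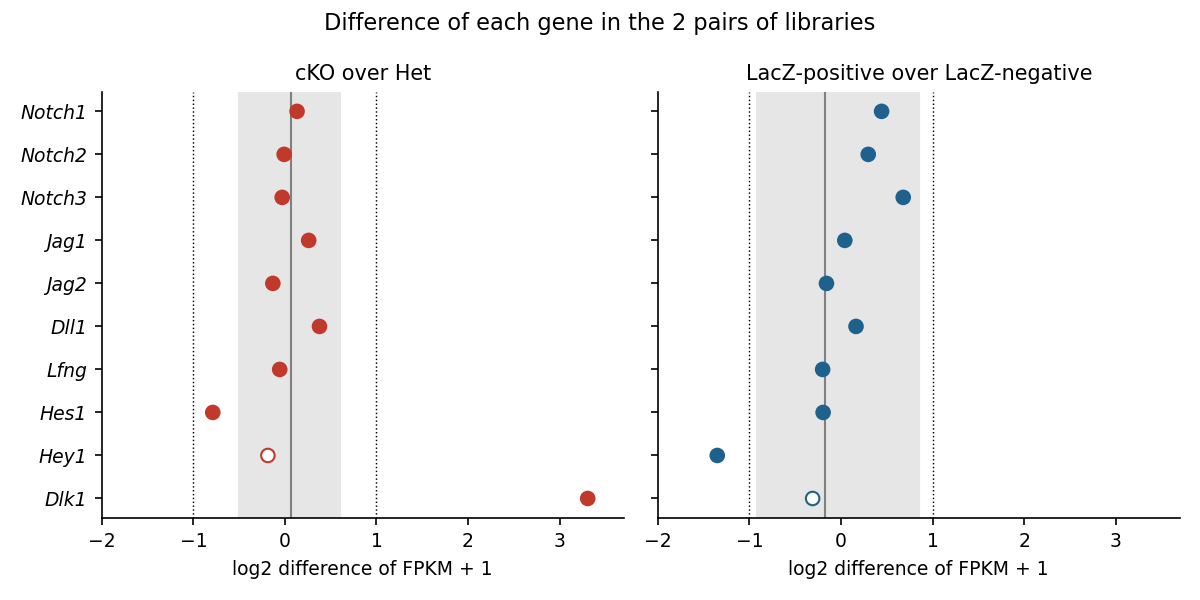
Log2 difference of FPKM + 1 for each gene, cKO over Het on the left and LacZ-positive over LacZ-negative on the right; open circles mark genes under 1 FPKM in both libraries, grey bands the central 95% and grey lines the median of genes that reach 5 FPKM in both libraries, and dotted lines the 2-fold line. Dlk1 at 3.31 and Hey1 at -1.35 lie past the line, and the other measured members lie between -0.79 and 0.68.

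Among the receptors, Notch1 was the most abundant and differed little in the first comparison. Notch1 (ENSMUSG00000026923, mm9 chr2:26301215-26372183) stood at 31.0 FPKM in cKO-labelled cells and 28.2 in Het-labelled cells, with 36.8 FPKM in LacZ-positive cells and 26.8 in LacZ-negative cells. It was thus close in the first pair and higher in LacZ-positive cells, by 0.44 on the log2 scale (0.61 after centring). The table gives its interval to 2 further genes without a known role, Gm13568 and 0610009E02Rik, so reads can be shared; Gm13568 stood at 12.3 FPKM in LacZ-positive cells and 43.9 in LacZ-negative cells, the opposite direction.

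Notch2 (ENSMUSG00000027878, mm9 chr3:97817460-97954290), a receptor of the same structure, stood at 5.47 FPKM in cKO-labelled cells and 5.51 in Het-labelled cells, a log2 difference of -0.01. In LacZ-positive cells it stood at 6.36 FPKM and in LacZ-negative cells at 4.99, a difference of 0.30 (0.47 after centring). Notch3 (ENSMUSG00000038146, mm9 chr17:32250373-32303825), known in skin from the suprabasal layers and elsewhere from mural cells of vessels, was near the minimum in the first pair. It stood at 1.28 FPKM in cKO-labelled cells and 1.33 in Het-labelled cells, with 6.43 FPKM in LacZ-positive cells and 3.64 in LacZ-negative cells, a log2 difference of 0.68 (0.85 after centring). Its interval is shared with Gm17276, which stayed at or below 0.0673 FPKM.

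All 3 receptors were thus higher in LacZ-positive cells, none of them by 2-fold, while 36.6% of all measured genes were above 0 in this pair. After centring the 3 receptors remained higher, but 54.2% of all measured genes were then above 0. In summed FPKM the 3 receptors came to 49.6 in LacZ-positive cells and 35.4 in LacZ-negative cells, and to 37.8 in cKO-labelled cells and 35.0 in Het-labelled cells. Notch1 made up 74.2% of that sum in LacZ-positive cells and 75.6% in LacZ-negative cells, and 82.1% and 80.5% in cKO-labelled and Het-labelled cells. Notch3 made up 13.0% in LacZ-positive cells and 10.3% in LacZ-negative cells, against 3.39% and 3.78% in cKO-labelled and Het-labelled cells. The fourth receptor gene, Notch4, known from blood vessels, reached 1 FPKM only in the LacZ-negative library, at 1.12 FPKM beside 0.121 in LacZ-positive cells.

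Markers of suprabasal epidermis moved with the receptors in the second pair. All 13 of 13 were higher in LacZ-positive cells, and their summed level was 4942 FPKM in LacZ-positive cells and 2243 FPKM in LacZ-negative cells; 10 of them, Krt1, Krt10, Krt77, Krt79, Flg, Sprr1a, Sprr1b, Krtdap, Dsc1 and Dsg1a, were past the line. Krt10 stood highest, at 1491 FPKM in LacZ-positive cells and 633 in LacZ-negative cells, and Krtdap next, at 1318 and 594 FPKM. Cell cycle genes were higher as well, 19 of 19 and all but Pcna and Tyms by 2-fold or more (17), with Pcna the highest at 113 and 76.6 FPKM and Top2a next at 38.3 and 6.42 FPKM in LacZ-positive and LacZ-negative cells. The part of either in the receptor values was not tested. In bulk libraries fewer cells of a type and less RNA per cell cannot be told apart. Of the mural markers, 5 of 6 (Pdgfrb, Rgs5, Acta2, Des and Myh11) stayed under 1 FPKM in all 4 libraries. Cspg4 stood at 23.1 and 33.7 FPKM in LacZ-positive and LacZ-negative cells, and at 43.1 and 41.1 FPKM in cKO-labelled and Het-labelled cells. Cspg4 alone is not read as a level of mural cells. All 5 endothelial markers stayed under 1 FPKM.

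The 3 ligands summed to 136 FPKM in cKO-labelled cells, 128 FPKM in Het-labelled cells, 97.8 FPKM in LacZ-positive cells and 102 FPKM in LacZ-negative cells, above the receptor sum of the same library each time. None of them differed by 2-fold within a pair. Jag1 (ENSMUSG00000027276, mm9 chr2:136907191-136942380) stood at 59.8 FPKM in cKO-labelled cells and 49.8 in Het-labelled cells, a log2 difference of 0.26. In the second pair it stood at 28.8 FPKM in LacZ-positive cells and 28.0 in LacZ-negative cells, a difference of 0.04 (0.21 after centring). It was not lower in cKO-labelled cells, unlike Axin2.

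Jag2 (ENSMUSG00000002799, mm9 chr12:114146800-114167706), the second Jagged ligand, stood at 61.1 FPKM in cKO-labelled cells and 67.1 in Het-labelled cells, with 57.9 FPKM in LacZ-positive cells and 64.7 in LacZ-negative cells. It was slightly lower in the first-named library of both pairs, at log2 differences of -0.13 and -0.16, and the second turned to 0.01 after centring. Dll1 (ENSMUSG00000014773, mm9 chr17:15504317-15516439), a Delta-like ligand known from basal keratinocytes of human epidermis, stood at 15.0 FPKM in cKO-labelled cells and 11.3 in Het-labelled cells, with 11.04 FPKM in LacZ-positive cells and 9.74 in LacZ-negative cells. The differences were 0.38 and 0.16 (0.33 after centring), and A930024N18Rik in the same interval stayed at or below 0.667 FPKM. Jag1 and Jag2 together made up 89.0% of the summed FPKM of the 3 ligands in cKO-labelled cells and 91.2% in Het-labelled cells, and 88.7% and 90.5% in LacZ-positive and LacZ-negative cells. Of the remaining Delta-like ligand genes, Dll3 was at or below 0.276 FPKM and Dll4 at or below 0.123 FPKM in every library.

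Lfng (ENSMUSG00000029570, mm9 chr5:141083294-141091497) encodes Lunatic fringe, an enzyme that extends the sugar on Notch receptors and so tunes their response to Delta-like and Jagged ligands. It stood at 40.8 FPKM in cKO-labelled cells and 42.5 in Het-labelled cells, a log2 difference of -0.06. In LacZ-positive cells it stood at 26.2 FPKM and in LacZ-negative cells at 30.2, a difference of -0.20 (-0.03 after centring). Its level was therefore close within both pairs. Of the related enzymes, Mfng stayed at or below 0.0876 FPKM, while Rfng stood at 8.71 and 10.3 FPKM in cKO-labelled and Het-labelled cells, with 12.1 and 14.4 FPKM in LacZ-positive and LacZ-negative cells.

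Promoter sequences from RefSeq (GRCm38.p6) were found for 8 of the 10 members; Hes1 and Hey1 had none. Windows of 250 bases before and 50 after the start were searched on both strands for letters bound by RBPJ (GTGGGAA), by the TCF and LEF partners of β-catenin (CTTTGA) and by Hes and Hey proteins among other E-box factors (CACGTG). Across all 32851 windows these occurred in 6.38%, 16.0% and 7.15%. Lfng was the only member of the 8 with the RBPJ letters, at positions -109 to -103 counted from the start, and its E-box at -112 to -107 overlaps them. Jag1 was the only one with the TCF and LEF letters, at 25 to 30 on the opposite strand. Both stretches are printed to show these matches, with the matched bases in capitals; the Lfng line holds the 250 bases before the start (chr5:140607091-140607340, plus strand) and the Jag1 line 30 bases around its match (chr2:137116481-137116510, minus strand). A match describes letters only and shows no binding.
Lfng: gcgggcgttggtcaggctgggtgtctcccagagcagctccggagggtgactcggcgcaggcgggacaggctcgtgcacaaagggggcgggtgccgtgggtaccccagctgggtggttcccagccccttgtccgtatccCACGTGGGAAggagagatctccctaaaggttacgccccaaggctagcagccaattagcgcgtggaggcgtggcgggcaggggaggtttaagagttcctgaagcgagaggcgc
Jag1: gaggggggagcgccTCAAAGaagcgatcag

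In each pair the lowest difference of a member was that of a target gene. Hes1 (ENSMUSG00000022528, mm9 chr16:30064469-30067882), a repressor of the basic helix-loop-helix family and a direct Notch target in many tissues, stood at 9.62 FPKM in cKO-labelled cells and 17.3 in Het-labelled cells. The log2 difference was -0.79, short of the 2-fold line and below the band from -0.50 to 0.61 that holds the central 95% of genes that reach 5 FPKM in both libraries. In the second pair it stood at 69.2 FPKM in LacZ-positive cells and 79.4 in LacZ-negative cells, a difference of -0.19 (-0.02 after centring). Hes1 was thus lower in cKO-labelled cells and close between the LacZ populations.

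Hey1 (ENSMUSG00000040289, mm9 chr3:8663361-8667039), a repressor of the related Hey family, was the lowest of the 10 genes in the first pair. It stood at 0.724 FPKM in cKO-labelled cells and 0.961 in Het-labelled cells, both under the minimum, so no difference is read there. In the second pair it stood at 1.24 FPKM in LacZ-positive cells and 4.72 in LacZ-negative cells, a log2 difference of -1.35 (-1.18 after centring) and an FPKM ratio of 0.263. It held place 160 from the lowest among the 13283 genes of that pair. The value rests on a low level: with a pseudocount of 5 the difference was -0.64, inside the line.

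Beside Hey1, the inner root sheath keratin Krt25 was also far lower in LacZ-positive cells, at 1.13 FPKM against 47.7 FPKM in LacZ-negative cells, while Gata3 of the same list stood at 51.7 and 43.6 FPKM. The summed level of the 9 root sheath and shaft markers found was 61.9 FPKM in LacZ-positive cells and 96.4 FPKM in LacZ-negative cells. In either library 0 of them were listed at 0. Of the 5 measured, 1 (Krt25) was lower by 2-fold or more and 4 were higher. The direction of the sum rests on Krt25, since every other marker found had the higher FPKM in LacZ-positive cells. Whether root sheath or shaft cells carried Hey1 was not tested. Endothelial cells are another known site of Hey1, and their 5 markers summed to 1.12 FPKM in LacZ-positive cells and 1.10 FPKM in LacZ-negative cells. Each of them stayed under 1 FPKM. Tek had the lower FPKM in LacZ-positive cells, and Pecam1, Cdh5, Kdr and Emcn had the higher. Whether endothelial cells carried Hey1 was not tested.

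Beside Hes1, all 18 immediate early genes were higher in cKO-labelled cells, 9 of them (Fos, Fosb, Jun, Egr1, Atf3, Nr4a1, Dusp1, Zfp36 and Btg2) by 2-fold or more, and 17 of 18 measured cell cycle genes were lower, 10 by 2-fold or more (Mki67, Top2a, Ccna2, Ccnb1, Ccnb2, Cdk1, Cenpf, Foxm1, Aurkb and Birc5). After centring 8 of the immediate early genes were past the line, all but Zfp36 of those named. Summed, the immediate early genes came to 4462 FPKM in cKO-labelled cells and 1964 FPKM in Het-labelled cells, with Fos the highest at 938 and 348 FPKM, followed by Egr1 at 455 and 178 FPKM. Their part in the Hes1 value was not tested.

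Genes most like Hes1 were sought by the distance between the 2 log2 differences of each gene, over 4 libraries and 8462 candidate genes at 5 FPKM or more in each pair. The nearest were Epdr1 (-0.75 and -0.21), Fam53b (-0.83 and -0.17), the clone-named gene AC165361.1 (-0.74 and -0.11), Slco4a1 (-0.79 and -0.09) and Ablim3 (-0.69 and -0.11), each given with cKO over Het first and LacZ-positive over LacZ-negative second. Their distances ran between 0.0446 and 0.129, which says only that their values in these libraries lie close to those of Hes1. Fam53b shares its interval in the table, which holds 41 genes.

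Dlk1 (ENSMUSG00000040856, mm9 chr12:110691032-110701546, alone in its interval) stood at 21.6 FPKM in cKO-labelled cells and at 1.28 in Het-labelled cells, an FPKM ratio of 16.8. The log2 difference was 3.31 with the pseudocount of 1, and the authors' deposited table gives a log2 fold change of 4.07 for Dlk1 from the FPKM alone. In the second pair Dlk1 stood at 0.217 FPKM in LacZ-positive cells and 0.508 in LacZ-negative cells, under the minimum in both. The library of cKO-labelled cells is thus the only one of the 4 with Dlk1 above 1.28 FPKM. There Dlk1 ranked 4309 among all genes by FPKM, while it ranked 12304 in Het-labelled cells. In the first comparison 7 genes above 0 in both libraries had a larger difference; with genes listed at 0 in Het-labelled cells included, Dlk1 held place 69.

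The 250 bases before the Dlk1 start (GRCm38.p6, chr12:109452573-109452822, plus strand) are printed because Dlk1 has the largest difference of the 10 genes. The window with the first 50 transcribed bases held neither the RBPJ letters, the TCF and LEF letters nor the E-box on either strand, so no base is in capitals; this says only that these letters are not in the window. The stretch held 8 CG pairs at 54.8% G and C, beside medians of 6 and 52.4% over all windows and 18 and 66.0% in Lfng.
Dlk1: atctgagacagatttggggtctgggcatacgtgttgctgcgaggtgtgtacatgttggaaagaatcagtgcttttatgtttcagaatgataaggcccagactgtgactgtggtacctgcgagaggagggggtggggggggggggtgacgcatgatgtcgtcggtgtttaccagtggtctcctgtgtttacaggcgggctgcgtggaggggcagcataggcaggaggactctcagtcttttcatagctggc

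The related gene Dlk2 did not share the pattern. Dlk2, the closest relative of Dlk1, stood at 14.9 FPKM in cKO-labelled cells and 18.1 in Het-labelled cells, with 17.3 FPKM in LacZ-positive cells and 25.0 in LacZ-negative cells. Its log2 differences were -0.27 and -0.50 (-0.33 after centring). The interval of Dlk2 holds 2 genes, so reads can be shared. Per length, the ratio of Dlk1 to Dlk2 was 1.45 in cKO-labelled cells and 0.0708 in Het-labelled cells, and 0.0125 and 0.0203 in LacZ-positive and LacZ-negative cells.

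Genes around Dlk1 on chromosome 12 stayed within 2-fold. Dlk1 belongs to an imprinted region with the maternally expressed RNAs Meg3, Rian and Mirg and the paternally expressed genes Rtl1 and Dio3, and all 5 of these were under 1 FPKM in all 4 libraries, with Meg3 at 0.00318 FPKM in cKO-labelled cells and 0.0122 FPKM in Het-labelled cells. Of the 6 measured neighbours, 4 were higher and 2 lower in cKO-labelled cells, at log2 differences between -0.16 and 0.28: Begain stood at 1.39 and 1.67 FPKM, Wdr25 at 2.40 and 1.80, Wars at 13.5 and 11.6, Slc25a29 at 14.7 and 12.5, Yy1 at 34.2 and 33.3, and Degs2 at 1.09 and 1.15, each with cKO-labelled cells first. After centring Yy1 turned lower, which gives 3 higher and 3 lower. In the second pair these 6 lay between -0.80 and 0.03 (-0.63 and 0.20 after centring).

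Among other imprinted genes that act in growth, 9 of 10 list entries were found, and 7 were measured in the first comparison. The entry not found, Gtl2, is an older symbol of Meg3, which is given above. None was past the 2-fold line. Cdkn1c, a brake on cyclin-dependent kinases, came nearest at 9.88 FPKM in cKO-labelled cells and 4.65 in Het-labelled cells, a log2 difference of 0.95 and an FPKM ratio of 2.13. H19 stood at 2.74 and 1.54 FPKM, Plagl1 at 3.03 and 2.32, Mest at 2.48 and 1.83, Peg3 at 11.9 and 12.2, Igf2r at 7.10 and 7.24 and Grb10 at 1.79 and 1.89, cKO-labelled cells first in each. Ndn reached 1 FPKM only in the LacZ libraries, at 1.31 FPKM in LacZ-positive cells and 1.79 in LacZ-negative cells. In that pair H19 stood at 7.57 and 14.8 FPKM, a difference of -0.88 (-0.71 after centring), and Cdkn1c at 0.214 and 0.814 FPKM, under the minimum.

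Dlk1 is known from fibroblasts and fat precursors of developing skin, so markers of these cells were read beside it. Of 7 fibroblast markers, 5 (Col3a1, Pdgfra, Dcn, Lum and Dpt) stayed at or below 0.204 FPKM in both libraries of the first pair, with 0 of the 7 listed at 0 in cKO-labelled cells and 2 in Het-labelled cells. The collagen genes Col1a1 and Col1a2 stood at 10.3 and 12.5 FPKM in cKO-labelled cells, against 3.72 and 10.8 FPKM in Het-labelled cells, and Col1a1 was higher by 2-fold or more (1.26). Dcn reached 1 FPKM only in LacZ-positive cells, at 2.16 FPKM beside 0.423 in LacZ-negative cells. The summed level of the list was 23.1 FPKM in cKO-labelled cells and 14.7 FPKM in Het-labelled cells. Of 6 adipocyte lineage markers, all but Cebpa lay at or below 0.376 FPKM in both: Adipoq stood at 0.0562 FPKM and Plin1 at 0.0102 FPKM in cKO-labelled cells, and Fabp4 is listed at 0 in both. Cebpa, which keratinocytes also express, stood at 15.1 and 20.4 FPKM. Summed, the adipocyte list came to 15.7 FPKM in cKO-labelled cells and 20.8 FPKM in Het-labelled cells. Whether fibroblasts or fat precursors carried Dlk1 was not tested.

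**Figure D3:**
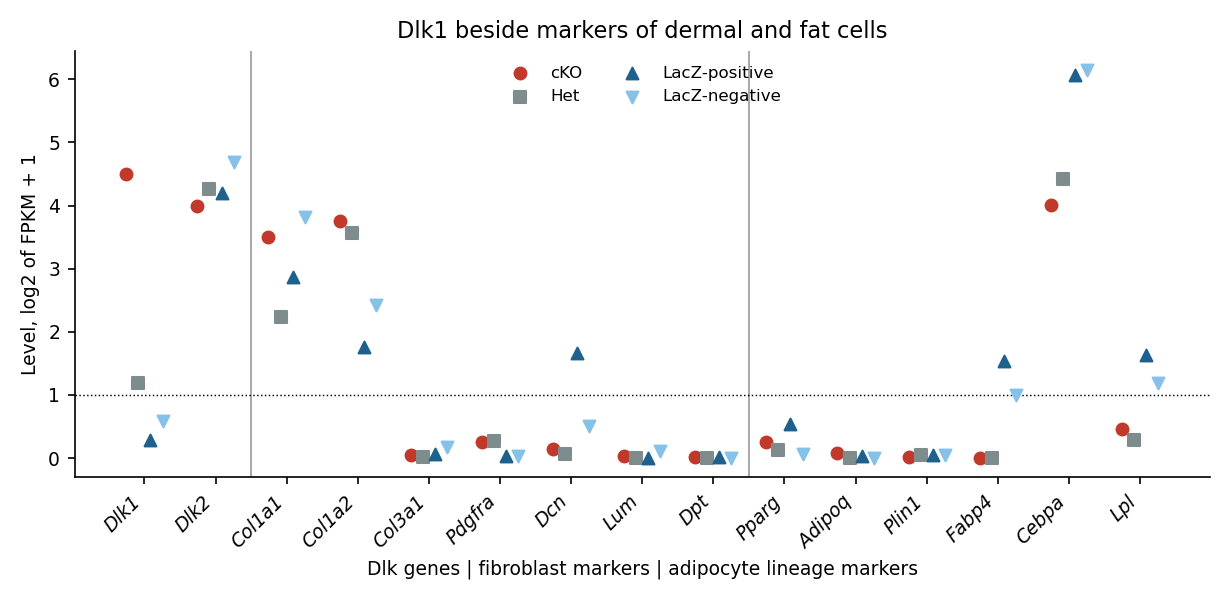
Levels as log2 of FPKM + 1 of Dlk1 and Dlk2, of 7 fibroblast markers and of 6 adipocyte lineage markers; each point is 1 library and the dotted line marks 1 FPKM. In cKO-labelled cells Dlk1 stands at 21.6 FPKM, above Col1a1 at 10.3 and Col1a2 at 12.5 FPKM, while Pdgfra, Dcn and Adipoq lie near 0.

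Genes with differences near those of Dlk1 were listed by the same distance, among 10769 genes at 1 FPKM or more in each pair and above 0 in all 4 libraries. The distance uses the difference for which Dlk1 was chosen and a LacZ difference of -0.31 from levels under the minimum, which the other genes had to reach, so it is a description and no test of likeness. The nearest was Clec3b, the gene of tetranectin, at 29.2 FPKM in cKO-labelled cells and 3.66 in Het-labelled cells, and 0.397 and 1.32 FPKM in LacZ-positive and LacZ-negative cells. Its log2 differences were 2.70 and -0.73, a distance of 0.743 from Dlk1. The next were the small RNA gene SNORA63, Synj1, Scrg1 and the clone-named gene AC120136.3, at distances between 0.982 and 1.42. SNORA63 shares its table interval, which holds 149 genes, and Synj1 and AC120136.3 share theirs, of 5 genes each. Scrg1, alone in its interval, stood at 51.2 FPKM in cKO-labelled cells and 11.6 in Het-labelled cells.

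**Figure D4:**
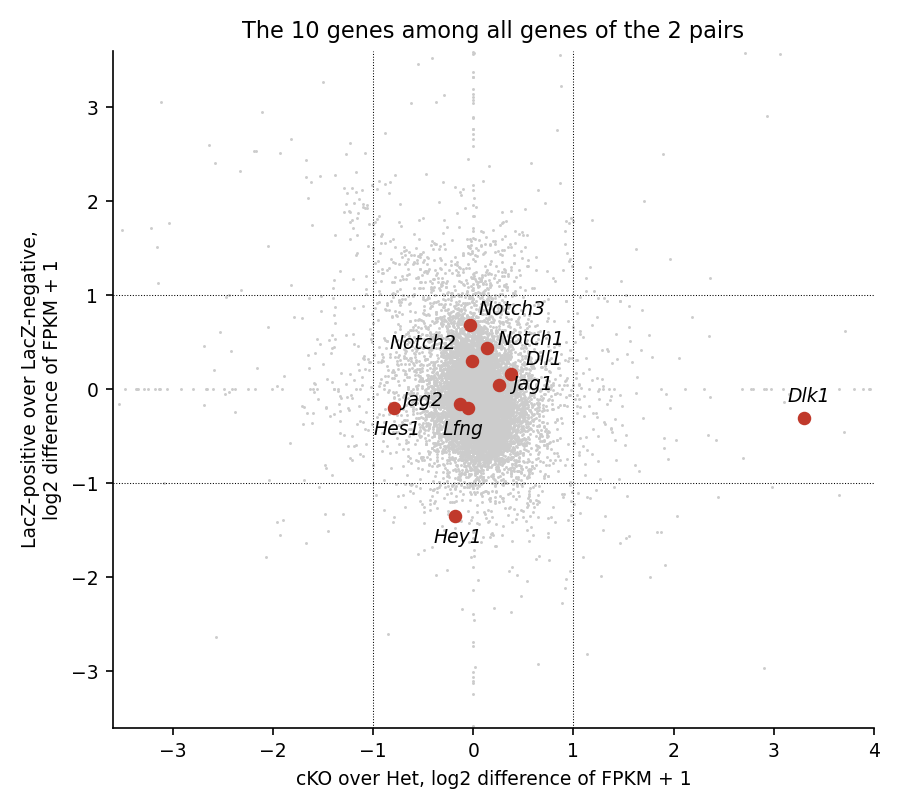
Log2 difference of FPKM + 1 for cKO over Het (horizontal) and LacZ-positive over LacZ-negative (vertical); grey points are genes at 1 FPKM or more in either pair, red points the 10 genes, dotted lines the 2-fold line, and genes beyond the axis limits are not drawn. Dlk1 at 3.31 stands to the right and Hey1 at -1.35 below the other 8 genes.

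The rest of the pathway was read from 55 further genes in 8 lists by role, all of them in the tables. In the first comparison 39 were measured, with 24 higher and 15 lower in cKO-labelled cells. Of the 39, 0 were past the 2-fold line in either direction, beside 4.09% of all measured genes. The median was 0.04, beside 0.06 for all measured genes, of which 60.9% were above 0. The balance depends on scaling: 15 were higher and 24 lower after centring, with a median of -0.03, and 20 were higher and 19 lower with upper-quartile scaling. In the second comparison 42 were measured, with 20 higher and 22 lower in LacZ-positive cells. Their median was -0.04, beside -0.13 for all genes. Again 0 were past the line, beside 7.27% of all measured genes. Here 25 were higher and 17 lower after centring, and 24 and 18 with upper-quartile scaling, so no direction is read for the pathway in either pair. Nor is a count of 0 read as a result, since the shares of all genes come to few genes in lists of this size.

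**Figure D5:**
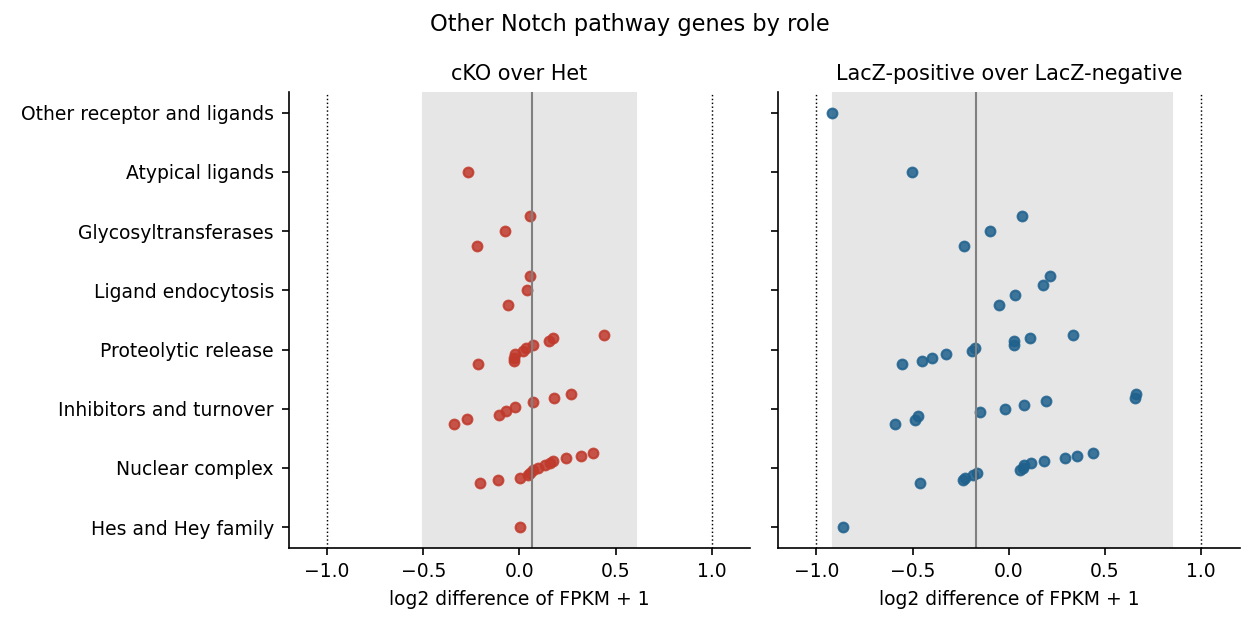
Log2 difference of FPKM + 1 for the measured genes of 8 lists of other Notch pathway genes, cKO over Het on the left and LacZ-positive over LacZ-negative on the right; each point is 1 gene, grey bands hold the central 95% and grey lines the median of genes that reach 5 FPKM in both libraries, and dotted lines mark the 2-fold line. None of the 39 and 42 genes is past the line, beside 4.09% and 7.27% of all measured genes.

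The machinery that processes ligands and receptors was present throughout. Mib2 and Mib1, ubiquitin ligases that drive endocytosis of ligands, stood at 28.3 and 18.7 FPKM in cKO-labelled cells and 27.5 and 19.6 FPKM in Het-labelled cells; in LacZ-positive cells they stood at 18.99 and 22.9 FPKM and in LacZ-negative cells at 19.7 and 22.4 FPKM. All 10 genes of proteolytic release were measured in both pairs. Psenen and Aph1a, subunits of γ-secretase, stood at 72.6 and 71.8 FPKM in cKO-labelled cells and 64.2 and 64.4 FPKM in Het-labelled cells. They stood at 54.4 and 57.1 FPKM in LacZ-positive cells and at 80.4 and 75.6 FPKM in LacZ-negative cells, log2 differences of -0.55 and -0.40 (-0.38 and -0.23 after centring). The glucosyltransferase gene Poglut1, which acts on the receptors, stood at 28.2 and 29.7 FPKM in cKO-labelled and Het-labelled cells, with 26.8 and 28.7 FPKM in LacZ-positive and LacZ-negative cells.

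Among inhibitors and turnover genes, Numb, which promotes removal of the receptor, stood at 37.9 FPKM in cKO-labelled cells and 40.8 in Het-labelled cells, with 27.5 FPKM in LacZ-positive cells and 38.6 in LacZ-negative cells. Dtx3, of the Deltex family, stood at 69.5 and 73.1 FPKM in the first pair and at 44.5 and 67.5 FPKM in the second, each with cKO or LacZ-positive first. Nrarp, a feedback inhibitor and Notch target, was named after its values were seen: it stood at 9.03 FPKM in cKO-labelled cells and 11.7 in Het-labelled cells (-0.34), with 19.99 FPKM in LacZ-positive cells and 12.3 in LacZ-negative cells (0.66, or 0.83 after centring). Its difference in the LacZ pair was positive, where that of Hey1 was negative.

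In the nuclear complex, 11 of 13 genes were higher in cKO-labelled cells, with a median of 0.10 and a range from -0.20 to 0.38, beside 60.9% of all measured genes above 0 and their median of 0.06. After centring 8 of the 13 were higher, as Ncor1, Crebbp and Ep300 turned to -0.01, -0.02 and -0.07, and 47.6% of all measured genes were then above 0. The top of the range, 0.38, is that of Kdm5a, whose interval holds 3 genes. The authors' deposited log2 fold change for Kdm5a is 0, beside 19.5 FPKM in cKO-labelled cells and 14.8 in Het-labelled cells. Ncor1, a corepressor, stood at 66.7 and 64.1 FPKM and Snw1, a coactivator, at 35.9 and 32.7 FPKM in cKO-labelled and Het-labelled cells. In the LacZ pair Ncor1 stood at 72.6 and 66.8 FPKM and Snw1 at 27.9 and 38.8 FPKM, LacZ-positive cells first. Rbpj, the DNA-binding partner of the receptors and also named after its values were seen, stood at 37.9 and 31.9 FPKM in cKO-labelled and Het-labelled cells, with 15.4 and 18.4 FPKM in LacZ-positive and LacZ-negative cells. Of the 7 other Hes and Hey genes, 6 stayed under 1 FPKM in every library, with Hes7 the highest of them at 0.289 FPKM in cKO-labelled cells. Hes6, which opposes Hes1 in neural cells, stood at 15.0 and 14.9 FPKM in cKO-labelled and Het-labelled cells, with 15.9 and 29.8 FPKM in LacZ-positive and LacZ-negative cells, a log2 difference of -0.86 (-0.69 after centring).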

How the data were processed

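RNA sequencing libraries of 4 sorted cell populations were used, grouped by the sample labels; the 4 ChIP samples were not analysed here. The authors deposited, as the headers name them, FPKM in 2 separately normalized tables of 32091 rows; the first also holds a log2 fold change by the authors, used only where named. The submitters' processing notes list Cufflinks 2.1.1, TopHat2 2.0.4, TopHat, mm9 and GRCm38 without roles, and no strand or multi-read setting. Table coordinates are taken as mm9, since those of chromosome 7 reach 152509964, past the last gene end in GRCm38 (145324059).

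Per the labels' protocols, libraries were made with a TruSeq mRNA kit. FPKM keep no counts, so absolute depth is unknown and no counting interval is given. Among 3435 rows under 0.3 FPKM in both libraries, the most common cKO over Het ratio was 1.04 (11.0% of rows within 2% of it); for LacZ-positive over LacZ-negative it was 0.939 (4.36% of 3116).

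In Python 3.11.15, 25 symbols turned into dates were restored by identifier, 1 older symbol was matched by coordinates, and rows of a symbol were summed. Members, lists and rules were chosen with earlier results of these data known. Named are all members, the 2 most abundant genes of each pathway list and any past the line, measured locus genes, the top 2 and called markers of lists set beside a result in the pair concerned, and the 5 genes most like Dlk1 and Hes1, leaving out Gm, Rik and small RNA names; SNORA63, written in capitals, passed that name pattern and is given. The call arithmetic was tested on simulated data, which says nothing of the spread between libraries. Alternatives were other pseudocounts and minimums, 2 scalings, the highest row per symbol, genes alone in their interval and genes above 0.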

Additional observations from a re-analysis of the deposited data

How the results depend on the processing

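With 1 library per group nothing can be left out, and no difference has a replicate check. No paired analysis was possible because each group has 1 library. The count of genes past the 2-fold line in the first comparison (532) was 303 with a pseudocount of 5, 335 without genes listed at 0 and 241 with only genes alone in their interval, which tests fewer genes; in the second comparison (966) it was 460 with a pseudocount of 5 and 490 with only genes alone in their interval. Dlk1 was past the line under all 9 alternatives, with a log2 difference between 2.08 (pseudocount of 5) and 3.97 (pseudocount of 0.1). It was chosen for this difference, so this is a description only. Alternatives that only select genes or rows left the value at 3.31. The single member past the line in the LacZ pair, Hey1, became 0 with a pseudocount of 5 and with a minimum of 5 FPKM, which it does not reach; its difference was between -1.84 and -0.64 over the 8 alternatives that give it a value. Of the other Notch pathway genes, 2 instead of 0 were past the line in the LacZ pair with a pseudocount of 0.1, 1 in each direction. Of 18 differences of members, 17 had one sign under every alternative run, while Jag2 in the LacZ pair turned to 0.01 after centring. Only the 2 scalings could change a sign. A pseudocount keeps it, and the other alternatives select genes or rows and leave a member's value as it was.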

Other observations

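Some members had levels in both libraries of one table well apart from those in both libraries of the other. The tables were normalized separately, and their mice differ in sex, age, strain, genotype and sort, which cannot be told apart, so these are values and no comparison. Hes1 stood at 69.2 and 79.4 FPKM in LacZ-positive and LacZ-negative cells, against 9.62 and 17.3 FPKM in cKO-labelled and Het-labelled cells, and the lower LacZ value was 3.99 times the higher Ctnnb1 value. Among 10529 genes above 0 in all 4 libraries and at 5 FPKM or more in any, 3.24% had both LacZ values at least 2-fold above both Ctnnb1 values and 0.902% at least 4-fold. Notch3 had a ratio of 2.75 on the same measure. Jag1 ran the opposite way, with the lower Ctnnb1 value 1.73 times the higher LacZ value, as did Rbpj at 1.74. Both were short of 2-fold. Dlk1 had a ratio of 2.53 in that direction, from low levels of 1.28 FPKM in Het-labelled cells and 0.508 FPKM in LacZ-negative cells. Cdkn1c had a ratio of 5.70 in that direction, where 2.17% of genes reached 2-fold and 0.513% reached 4-fold. Per length, Hes1 over Notch1 was 1.88 and 2.96 in LacZ-positive and LacZ-negative cells, and 0.310 and 0.615 in cKO-labelled and Het-labelled cells.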
